A study of Homo sapiens with 4 samples.

Results

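miR-7 was read out through 3 of the 2656 mature miRNAs counted in small RNA libraries of HEK293T cells. These were hsa-miR-7-5p, the guide strand that 3 hairpins share, and the opposite arms hsa-miR-7-1-3p and hsa-miR-7-2-3p, each of which belongs to a single hairpin. They were chosen by name, with their levels in these libraries already known, so the values below are a description and no test of them is offered as evidence. HEK293T is an established human line, obtained from embryonic kidney and expressing the large T antigen of SV40. Every line had a landing pad in its genome, that is, an engineered site for inserting transgenes. In 2 libraries the pad held the PGK promoter, from the phosphoglycerate kinase gene, and in 2 it held CAG, a composite promoter that joins the enhancer of cytomegalovirus to beta-actin sequence of chicken. The labels name no treatment, so the groups differed in pad promoter and in clone. The lines were monoclonal, and the labels used here give neither the number of lines nor whether replicates were separate cultures. Promoter and clone therefore cannot be told apart, and any spread between replicates may be technical.

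miR-7 is an ancient miRNA that is enriched in neurons and in neuroendocrine cells such as those of the pancreatic islets, and it is known to repress transcripts of growth factor signalling, including EGFR and IRS2. Its level is set partly after transcription. The circular RNA CDR1as binds many copies of it, the long noncoding RNA Cyrano (OIP5-AS1 in human) directs its decay, and miR-671-5p guides the cleavage of CDR1as. In each hairpin the guide lies in the 5′ arm, and the 3′ arm strand is mostly degraded, so a 3′ arm is a low-level mark of which hairpin was processed.

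The mature sequences, taken from RefSeq (GRCh38.p14; 3 of 3 names matched), show why the guide cannot be assigned to a locus while its partners can. They are written 5′ to 3′ with the seed, bases 2 to 8, in capitals.
miR-7-5p: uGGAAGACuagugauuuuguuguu
miR-7-1-3p: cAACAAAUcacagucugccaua
miR-7-2-3p: cAACAAAUcccagucuaccuaa
The 24 bases of miR-7-5p occur unchanged in all 3 hairpins. Its seed GGAAGAC belonged to no other mature miRNA name of the RefSeq table, and the deposited family of that seed had the same reads as miR-7-5p in all 4 libraries. The family therefore adds no second reading. Both 3′ arms have the seed AACAAAU, and the deposited family of that seed equalled the sum of the 2 arms in every library.

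The 3′ arms differ in sequence, so their reads can be told apart, although the number of mismatches allowed in counting is not known here. Below, capitals mark the bases at which miR-7-2-3p, or the most similar stretch of the MIR7-3 hairpin, differs from miR-7-1-3p.
miR-7-1-3p: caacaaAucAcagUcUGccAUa
miR-7-2-3p: caacaaaucCcagucuAccUAa
MIR7-3 stretch: caacaaGucacagCcGgccUCa
Counted from 1 at the 5′ end, with the base of miR-7-1-3p first, miR-7-2-3p has A10C, G17A, A20U and U21A and is identical at 18 of 22 bases. The MIR7-3 stretch has A7G, U14C, U16G, A20U and U21C and is identical at 17 of 22 bases. That stretch was not analysed here as a counted miRNA, so MIR7-3 can contribute to miR-7-5p with no locus reading of its own.

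In GENCODE release 29 (GRCh38), MIR7-1 lies on chromosome 9 at 83969748 to 83969857 on the minus strand, inside HNRNPK, which encodes the RNA-binding protein hnRNP K. The hairpin is intronic in 6 of the 7 HNRNPK transcripts that span it and overlaps an exon of the other one. MIR7-2 lies on chromosome 15 at 88611825 to 88611934 on the plus strand, 3627 bases beyond MIR1179. MIR7-3 lies on chromosome 19 at 4770670 to 4770779 on the plus strand, within introns of the noncoding gene MIR7-3HG in all 9 transcripts that span it. Host transcripts were not measured in these small RNA libraries. The deposited tables hold no coordinates, so the positions were looked up by name.

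Depth limits what the rare arm can show. Totals were 7927615 (replicate 1) and 7331437 (replicate 2) miRNA counts for PGK, against 13780279 (replicate 1) and 2845945 (replicate 2) for CAG, so the CAG replicates are the deepest and the shallowest of the set. Levels are given as CPM, counts scaled to a common library total with TMM factors. A limit of 3 reads, roughly the one-sided 95% bound for a count of 0, stood at 0.375 and 0.418 CPM in the PGK libraries. In the CAG libraries it stood at 0.233 and 0.972 CPM. Of the 773 miRNAs that passed the low-count filter, 2 were miR-7 strands. miR-7-2-3p did not pass.

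miR-7-5p was among the most abundant miRNAs of these kidney-derived cells. Its reads numbered 379941 in PGK replicate 1, 295915 in PGK replicate 2, 987176 in CAG replicate 1 and 128000 in CAG replicate 2. As a share of all miRNA counts this was 4.79% and 4.04% in PGK and 7.16% and 4.50% in CAG libraries, and it ranked 4, 5, 4 and 4 among all miRNAs. By mean level its rank was 4, below miR-10a-5p at 80862 CPM and above miR-378a-3p at 36653 CPM. The levels of those 2 neighbours did not overlap with that of miR-7-5p in the CAG libraries. In the PGK libraries miR-378a-3p, at 43960 and 43128 CPM, lay between the 2 readings of miR-7-5p, so it did not differ from miR-7-5p there beyond their spread. miR-10a-5p, at 75179 and 71061 CPM, was above both PGK readings of miR-7-5p.

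After scaling, miR-7-5p was at 47543 and 41261 CPM in PGK replicates 1 and 2, at 76662 CPM in CAG replicate 1 and at 41487 CPM in CAG replicate 2. A single library was high, and CAG replicate 2 lay between the 2 PGK libraries, so the groups overlapped. The PGK libraries averaged 44402 ± 4442 CPM and the CAG libraries 59075 ± 24873 CPM (SD, n = 2). The fitted log2 fold change, CAG minus PGK, was 0.41 (SE 0.25), which is 1.33-fold.

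miR-7-1-3p, the reading of the HNRNPK locus, was far rarer. PGK replicate 1 held 590 of its reads (73.8 CPM), PGK replicate 2 held 368 (51.3 CPM), CAG replicate 1 held 1037 (80.5 CPM) and CAG replicate 2 held 268 (86.9 CPM). PGK replicate 2 was the lowest library for this arm and for the guide, but the order of the other libraries differed. CAG replicate 2, where miR-7-5p was no higher than in PGK cells, had the highest level of this arm. The PGK mean was 62.6 ± 15.9 CPM and the CAG mean 83.7 ± 4.48 CPM (SD, n = 2), and the groups did not overlap. Of all tested miRNAs 29.8% likewise had both CAG libraries above both PGK libraries, so this is common here. The fitted log2 fold change was 0.41 (SE 0.22), again 1.33-fold.

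The guide and its arm thus had nearly the same fitted fold change, from different libraries. Neither was called in the edgeR quasi-likelihood fit over all miRNAs (0 of 2 at an adjusted p under 0.05, and 0 of 2 at an unadjusted p under 0.05; DESeq2 and limma-voom also called 0 of 2). That fit called 14.2% of the 773 miRNAs (8.15% higher and 6.08% lower in CAG). Since the strands were chosen with this contrast known, nothing is read from that count. For miR-7-5p the fit rested on CAG replicate 1. Without that library the log2 fold change was −0.092 (SE 0.13), and without CAG replicate 2 it was 0.79 (SE 0.13), the only one of the fits run in which it was called (10.1% of miRNAs were called higher there). For miR-7-1-3p it was 0.68 (SE 0.24) without PGK replicate 1 and 0.17 (SE 0.23) without PGK replicate 2.

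**Figure D1:**
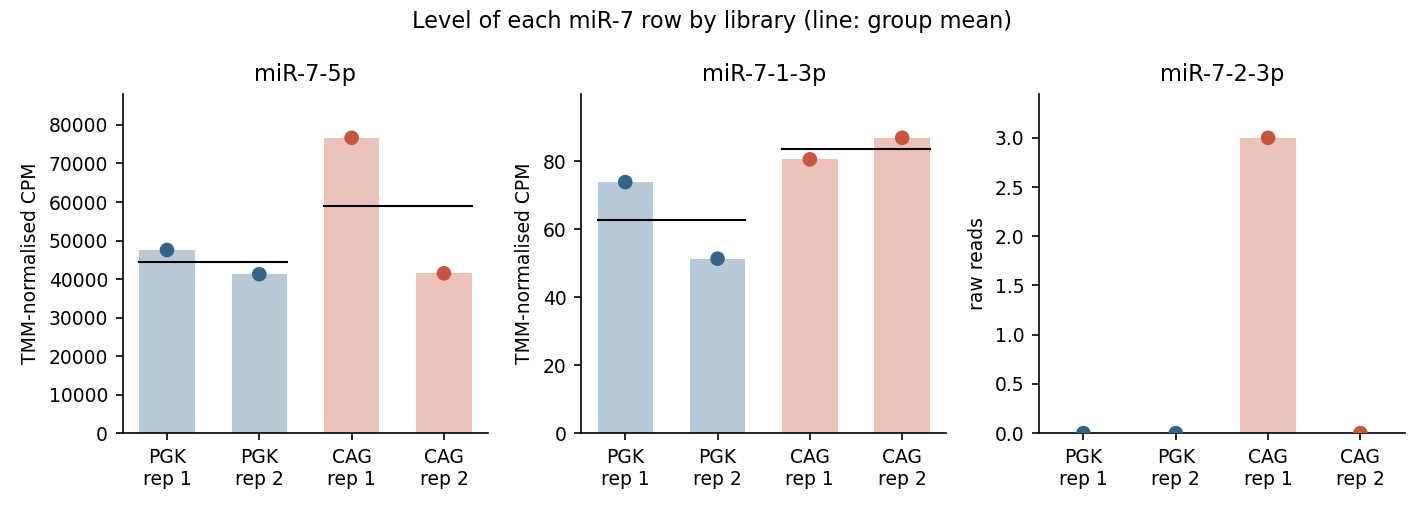
Level of each miR-7 strand in the 4 libraries, as TMM-normalised CPM for miR-7-5p and miR-7-1-3p and as raw reads for miR-7-2-3p; bars and points are single libraries and black lines are group means. miR-7-5p is high in CAG replicate 1 only (76662 CPM), miR-7-1-3p is lowest in PGK replicate 2 (51.3 CPM), and miR-7-2-3p was read in CAG replicate 1 only.

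miR-7-2-3p was close to absent. It had 0 reads in both PGK libraries, 3 in CAG replicate 1 (0.233 CPM) and 0 in CAG replicate 2, so all its reads came from the deepest library. No fold change is given, because both groups were at or under 3 reads. Of the reads of the 2 locus-specific arms, miR-7-1-3p held 100% of 590 and of 368 in PGK replicates 1 and 2, 99.7% of 1040 in CAG replicate 1 and 100% of 268 in CAG replicate 2. The 95% exact (Clopper-Pearson) intervals began at 99.4%, 99.0%, 99.2% and 98.6% in that order. They reflect the counting of reads alone, and they may be too narrow, since PCR copies of a molecule were not told apart. Where miR-7-2-3p had 0 reads, the same intervals allow it a share of up to 0.623% in PGK replicate 1, 0.997% in PGK replicate 2 and 1.37% in CAG replicate 2. This dominance of the MIR7-1 arm was shared by both groups at this depth. The share of a 3′ arm is not the share of the guide made by its hairpin, since each hairpin can keep its 3′ arm to a different degree, and adapter ligation also affects the 2 arms differently.

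The neighbourhood of MIR7-2 was equally quiet. miR-1179, the next miRNA upstream, had 2 reads in PGK replicate 1, 1 in PGK replicate 2, 5 in CAG replicate 1 and 0 in CAG replicate 2. MIR3529 lies on the opposite strand of MIR7-2, and its 3′ arm is the exact reverse complement of miR-7-5p, which is why its sequence is shown.
miR-3529-3p: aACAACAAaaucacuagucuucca
It had 0 reads in all 4 libraries, beside 1791032 reads of miR-7-5p, and so did miR-3529-5p. None of these 3 locus neighbours passed the low-count filter.

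The ratio of the guide to the MIR7-1 arm does not depend on scaling between libraries, since both strands are read from the same library. There were 644 miR-7-5p reads per miR-7-1-3p read in PGK replicate 1 (95% exact interval 594 to 699), 804 in PGK replicate 2 (726 to 893), 952 in CAG replicate 1 (896 to 1013) and 478 in CAG replicate 2 (424 to 540). The CAG libraries gave both the highest and the lowest ratio, 1.99-fold apart, and both PGK libraries lay between them at 1.25-fold apart. The intervals of the CAG libraries did not touch, but they cover the counting of reads alone and not other variation between libraries. On the log2 scale the mean ratio was 9.49 ± 0.23 in PGK and 9.40 ± 0.70 in CAG cells (SD, n = 2), a difference of −0.094 that is well inside the spread of the CAG pair. With 2 against 2 libraries an exact permutation test could not have passed the threshold, and none was run.

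**Figure D2:**
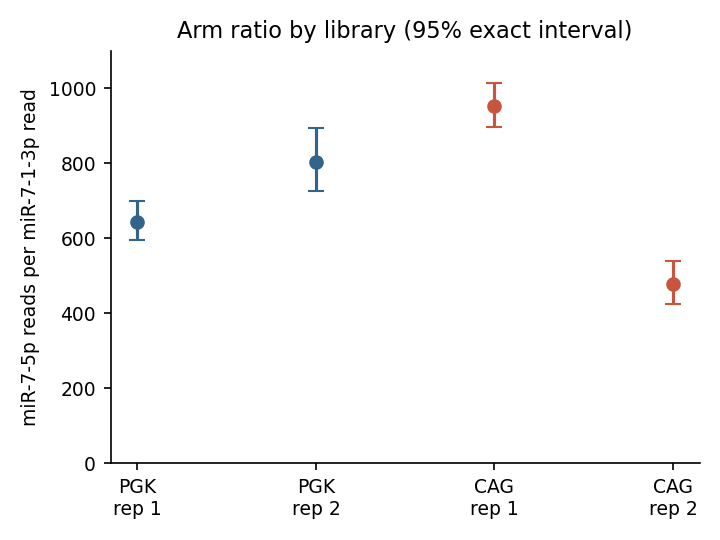
Reads of miR-7-5p per read of miR-7-1-3p in each library, with 95% exact binomial intervals that cover the counting of reads alone. The ratios are 644 and 804 in the PGK and 952 and 478 in the CAG replicates, so the CAG pair brackets the PGK pair.

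A gap of this size between replicates was uncommon but not confined to miR-7. Among 92 guide and partner pairs with both strands at a mean of at least 10 CPM, the median absolute difference of the log2 ratio between CAG replicates was 0.36, and miR-7-5p with miR-7-1-3p, at 1.00, ranked 4 behind the pairs of miR-3127 (1.02), miR-222 (1.02) and miR-181b (1.01). Between PGK replicates its log2 ratio differed by −0.32, which ranked 40 of 92. Within these pairs the strand bias of miR-7 was strong: its mean log2 ratio of 9.44 ranked 2 of 92, after 10.51 for miR-20a. The median pair stood at 3.32. Pairs were matched by name, so other guides with numbered locus arms were left out of this ranking. One of them, miR-26a-5p, had more reads per read of its larger arm than miR-7-5p in every library. Its ratios were 889 and 1544 in the PGK and 1441 and 1512 in the CAG libraries. let-7f-5p, described below, was left out too. For miR-7 the numerator pools the guide of 3 hairpins while the partner comes from 1, which can raise its ratio. How much of the guide came from the other hairpins was not measured.

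The level of miR-7-5p alone also stood out between the CAG replicates. CAG replicate 1 was 1.85-fold above CAG replicate 2, a log2 difference of 0.89, against 0.20 between PGK replicates 1 and 2. Among the 24 miRNAs whose mean reached 10000 CPM this was the largest absolute difference between CAG replicates, where the SD over these miRNAs was 0.26 and the median 0.16. Among the 78 with at least 1000 CPM it ranked 4, after miR-1260b (−1.36), miR-1260a (−1.34) and miR-7974 (0.97). In the PGK pair miR-7-5p ranked 24 of 78. miR-7-1-3p differed by −0.11 between CAG replicates (rank 322 of 436 miRNAs with at least 10 CPM) and by 0.52 between PGK replicates (rank 47 of 436). CAG replicate 1 was also the deepest and CAG replicate 2 the shallowest library. The gap depended in part on scaling: it was 0.67 when scaled by library size alone. After reads were drawn at random to thin every library to the shallowest total, the gap was 0.88. The cause of the gap, including other differences between these libraries, was not tested.

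**Figure D3:**
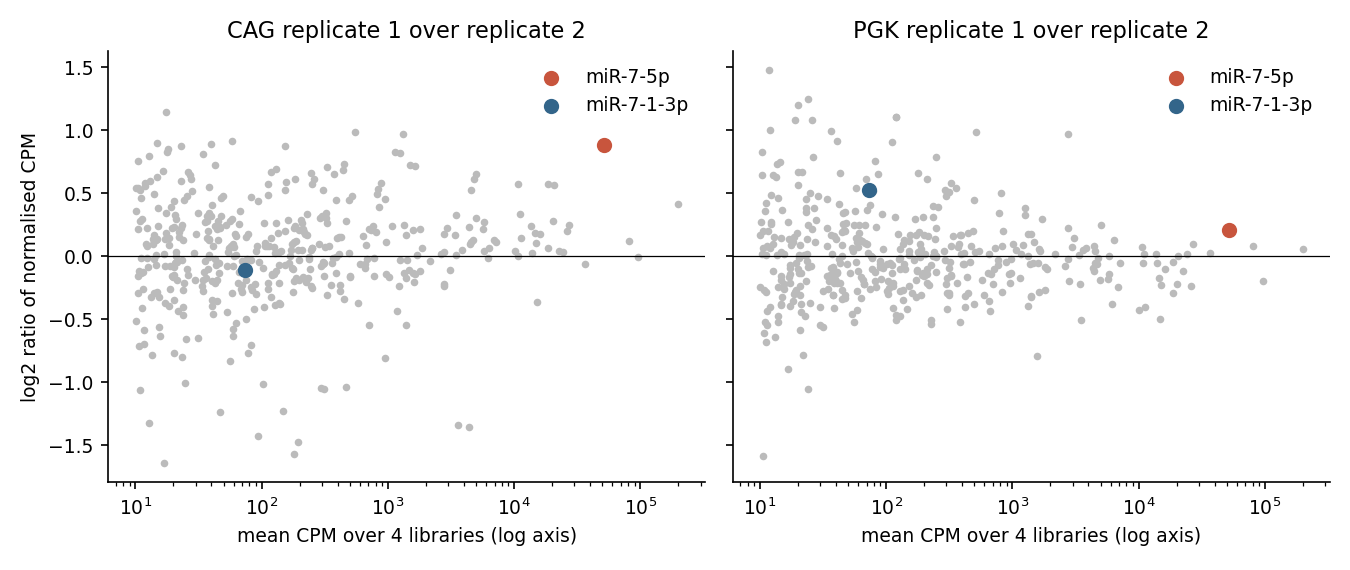
Log2 ratio of replicate 1 to replicate 2 against mean CPM (log axis) for miRNAs whose mean reached 10 CPM, in CAG (left) and PGK (right) libraries; grey points are other miRNAs. miR-7-5p lies at 0.89 in the CAG pair, above every other miRNA of at least 10000 CPM, and at 0.20 in the PGK pair, while miR-7-1-3p lies at −0.11 and 0.52.

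The dominance of a single locus-specific arm was set beside 16 other guides made by more than 1 hairpin, from a list of 17 guides with 2 locus-specific arms each. Over the 4 libraries summed, miR-7-1-3p held 99.9% of 2266 arm reads, which ranked 4 of 17. The median share of the larger arm was 94.1%. Similar one-sided pairs were miR-92a-3p and miR-128-3p, whose second arm had 0 reads, and miR-125b-5p, at 99.95%. At the other end miR-181a-5p, made by a pair of clusters on different chromosomes, had 62.4% from its larger arm. Over the summed libraries there were 791 miR-7-5p reads per read of the larger arm, which ranked 4 of 17, where the median guide had 37.1. The ratio was higher for miR-218-5p (58257, from 9 reads of its larger arm), miR-103a-3p (9105, from 48 reads) and miR-26a-5p (1273). let-7f-5p, at 769, was close: its ratio was above that of miR-7-5p in PGK replicate 1 and CAG replicate 2 and below it in PGK replicate 2 and CAG replicate 1. Both arms passed the filter for 6 of the 17 guides, and there the second locus could be followed as well. The fold changes of the 2 arms were farthest apart for miR-16: miR-16-1-3p rose by 0.97 on the log2 scale (called) while miR-16-2-3p stood at −0.091 and the shared guide miR-16-5p at 0.05 (both not called). The difference between those 2 arms was not itself tested. Both arms of miR-181a were called higher (0.82 for miR-181a-3p and 1.47 for miR-181a-2-3p), and no arm of the other 4 guides was called. For miR-7 no such comparison of loci was possible, because the second arm had 3 reads.

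**Figure D4:**
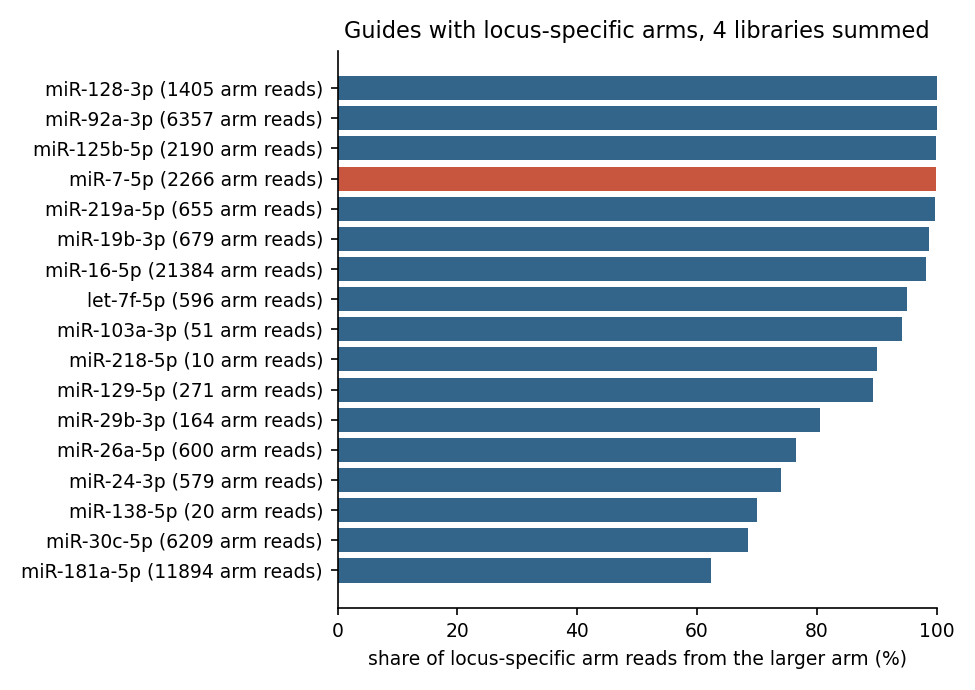
Share of locus-specific arm reads held by the larger arm for 17 guides made by more than 1 hairpin, libraries summed; the number of arm reads is given with each name. miR-7-5p (red), at 99.9% of 2266 reads, is near the one-sided end, and miR-181a-5p, at 62.4%, is the most even.

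The miRNAs whose pattern over the 4 libraries was most like that of each strand were different ones. The measure was the Euclidean distance between log2 CPM values centred on their mean over the 4 libraries, among miRNAs of at least 100 CPM. For miR-7-5p the closest of 221 were miR-548am-3p (distance 0.21), miR-425-5p (0.22), miR-548o-3p (0.26), miR-641 (0.28) and miR-96-5p (0.35), against a median distance of 0.84. miR-425-5p, for example, stood at 1304 and 1000 CPM in the PGK and 1716 and 975 CPM in the CAG libraries, also high in CAG replicate 1 alone. For miR-7-1-3p the closest of 222 were miR-331-3p (0.11), miR-23b-3p (0.22), miR-32-3p (0.24), miR-3158-3p (0.25) and miR-361-5p (0.25). miR-331-3p stood at 230 and 175 CPM in the PGK and 270 and 272 CPM in the CAG libraries. The distance between miR-7-5p and miR-7-1-3p themselves was 0.74, not far from the median.

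Of the circuit that acts on miR-7, only miR-671 is a miRNA and could be read. miR-671-5p, which guides cleavage of CDR1as, was at 54.1 and 49.9 CPM in the PGK and 71.4 and 58.3 CPM in the CAG libraries. It was highest in CAG replicate 1, as miR-7-5p was, and the groups did not overlap, as for 29.8% of all tested miRNAs in that direction. Its log2 fold change was 0.33 (SE 0.21). Its partner strand miR-671-3p was at 264 and 326 CPM in the PGK and at 324 and 336 CPM in the CAG libraries, with a log2 fold change of 0.16 (SE 0.19). Of these 2 strands 0 were called by edgeR.

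Other miRNAs known for neurons and neuroendocrine cells were mixed in level and direction. Of 14 listed, 8 passed the low-count filter and 4 had 0 reads in every library. Among the 8, edgeR called 2 higher and 2 lower in CAG cells, where 8.15% and 6.08% of all tested miRNAs were called higher and lower, and their median log2 fold change was −0.10, beside −0.0042 over all tested miRNAs. miR-218-5p, known from motor neurons, rose 3.95-fold and miR-129-5p rose 1.73-fold, while miR-9-5p fell to 0.480 and miR-9-3p to 0.381 of the PGK level. miR-124-3p, the defining miRNA of mature neurons, had 3 and 0 reads in the PGK and 1 and 0 reads in the CAG libraries. miR-153-3p, also neuronal, had 0 reads. miR-375-3p, the leading miRNA of pancreatic islets, was at 124 and 144 CPM in the PGK and 95.1 and 89.8 CPM in the CAG libraries (log2 fold change −0.53, SE 0.19, not called). The summed level of the 14 was 23655 and 29040 CPM in PGK and 44943 and 40459 CPM in CAG libraries, mostly miR-128-3p and miR-218-5p. HEK293T has no defining miRNA to check the label against. Of 9 markers of neurons, islets, liver, blood and muscle, 4 passed the filter, and their summed level was 232 and 244 CPM in the PGK and 114 and 106 CPM in the CAG libraries. The muscle miRNAs miR-1-3p and miR-133a-3p were the 2 called, both lower in CAG cells, and the part of such markers in the levels of miR-7 was not tested. Blood markers were at or near 0: miR-223-3p had 0 reads, miR-142-3p 13 reads and miR-451a 11 reads over the 4 libraries.

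**Figure D5:**
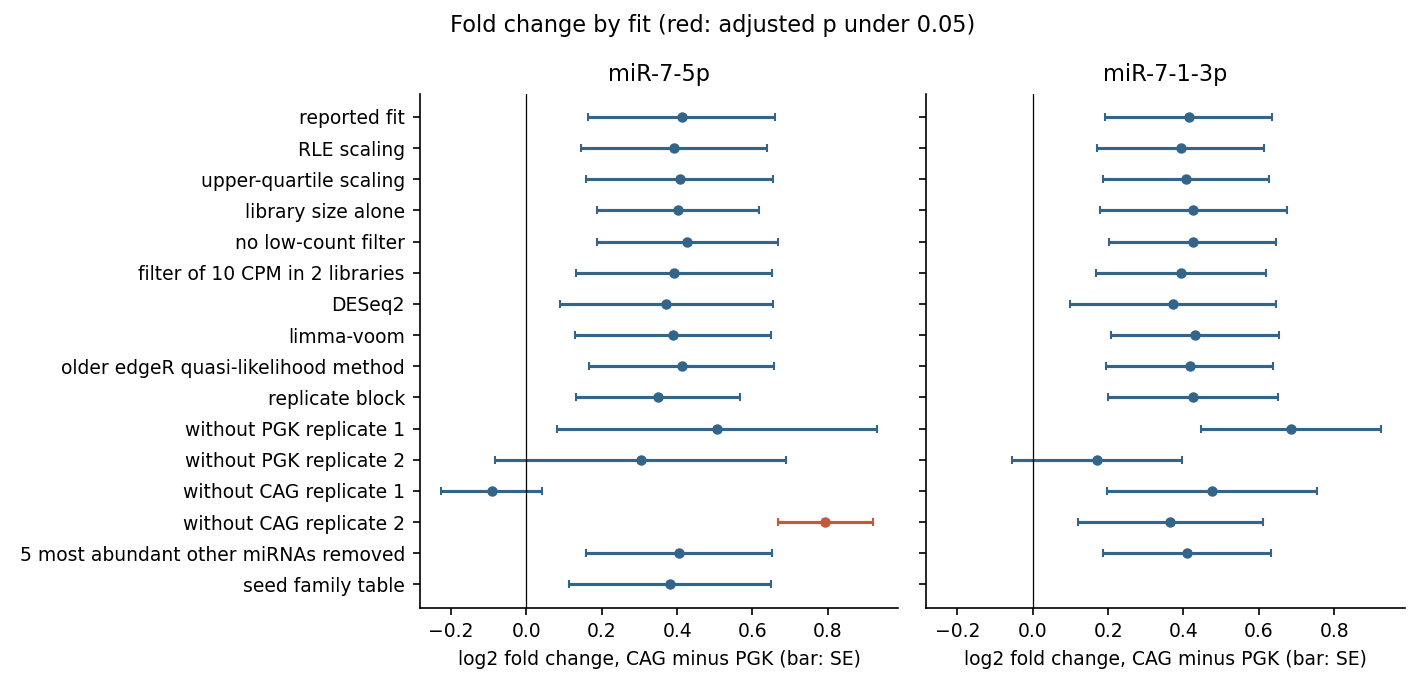
Log2 fold change of miR-7-5p and miR-7-1-3p, CAG minus PGK, in the reported fit and under each alternative; bars are standard errors and red marks an adjusted p under 0.05. For miR-7-5p the estimate runs from −0.092 without CAG replicate 1 to 0.79 without CAG replicate 2, and for miR-7-1-3p from 0.17 without PGK replicate 2 to 0.68 without PGK replicate 1.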

How the data were processed

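The authors deposited whole-number read counts for 2656 mature miRNAs and 2094 seed families, 1 column per library. Per the labels' protocols, total RNA came from Trizol extraction and the NEBNext Small RNA kit gave the libraries, so adapter ligation and PCR enter each count. Trimming, the aligner, the genome build and the rule for shared reads: not given in the sources used here. Groups and replicate numbers came from the sample titles. Replicates were checked: a chi-square of 66.1 (PGK) and 125 (CAG) per degree of freedom shows that the pairs are not copies.

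The whole table was fitted with edgeR 4.0.16 in R 4.3.3 (quasi-likelihood, TMM, default low-count filter with minimum count 10 and minimum total 15, group only), with Benjamini-Hochberg adjustment over 773 miRNAs and a threshold of 0.05. The fit was tested on simulated data. Standard errors were derived from the fold change and its F statistic. DESeq2 1.42.0 and limma 3.58.1 (voom) were alternatives. Levels are CPM on TMM-scaled library sizes. Patterns used log2 CPM with 0.5 CPM added. The miR-7 strands, the lists and the naming rules (listed miRNAs with a call, the most abundant of each list, the 5 closest in pattern, neighbours in level) were chosen with earlier results of these data known. The names miR-1260a, miR-1260b, miR-7974, miR-20a, miR-3127, miR-222, miR-181b and miR-103a-3p, and the 10000 CPM class, were added after seeing the values.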

Additional observations from a re-analysis of the deposited data

How the results depend on the processing

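The fold change of miR-7-5p stayed positive and uncalled in all fits with 4 libraries (0.35 to 0.43), the value of 0.35 being that with the replicate number as a block. Leaving out 1 library gave −0.092 to 0.79, negative without CAG replicate 1 and called without CAG replicate 2. miR-7-1-3p ran from 0.37 to 0.43 with all libraries (0.42 with the replicate block) and from 0.17 to 0.68 with 1 library left out, never called. The block rests on numbers that share only a label (correlation of same-numbered deviations −0.015). The number of calls over all miRNAs was 110. It was 63 with the replicate block and 49 at a threshold of 0.01, and 16 to 162 with 1 library left out (19 without PGK replicate 1, 16 without PGK replicate 2). With 1 library in an arm, that library is assumed to vary like the other group. The log2 gap of miR-7-5p between CAG replicates was 0.91 with upper-quartile scaling and 0.67 with library size alone. Thinned to the shallowest total, the libraries gave a CAG gap of 0.88. The PGK gap was 0.19 with upper-quartile scaling, 0.25 with library size alone, 0.22 without the 5 most abundant other miRNAs and 0.23 after thinning. The cause was not tested. The difference in the log2 ratio of miR-7-5p to miR-7-1-3p ran from −0.59 without CAG replicate 1 to 0.40 without CAG replicate 2. Those ends follow from the gap between the CAG replicates, so they are no check on the group difference. From summed reads the difference was 0.28 and after thinning it was −0.21, both within the spread of the CAG pair. miR-7-2-3p failed the filter, so no fold change is reported for it, and its ratio to the guide could not be compared between libraries, since it had reads in CAG replicate 1 alone. Depth limits what can be said of that arm.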
